A study of Stipitochalara longipes with 7 samples.

Results

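Of the 19765 gene models of the ascomycete fungus Stipitochalara longipes (Chalara longipesis in the labels), 41 were low only at the last of 3 harvests from decaying pine needles. These 41 members were picked from the measured values themselves. Total gene reads of each library were divided by a library size factor, which is the median, over gene models with reads everywhere, of the reads relative to their geometric mean, and the quotient is called scaled reads below. A member had at least 100 scaled reads in each of the 4 libraries from 2 and 5 months, and its lowest value there was at least 2 times its highest value at 10 months. Gene models with a peak at 2 or at 5 months alone were left out, by the same factor of 2. Levels at 10 months against the earlier harvests are therefore given as a description, without a test.

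The fungus grew alone on Scots pine needle litter that had been sterilised by gamma radiation, 11 g of dry needles with 85 g of sand per microcosm. Every microcosm received 20 ml of 100 mM ammonium chloride and was kept at 20 °C, and all were inoculated with needles that the fungus had occupied for 2 months beforehand. The harvests, after 2, 5 and 10 months, are represented by 2, 2 and 3 libraries that the labels describe as biological replicates, and no strain, genotype or unamended microcosm is named. The protocol describes 4 microcosms per species at each harvest, and no label ties a library to a microcosm. RNA was taken from 800 mg of needles and mycelium ground together.

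Fungi that decay needle litter secrete enzymes that release sugars from plant cell walls and take up the products together with nitrogen. As decay goes on, soluble compounds and accessible polysaccharides are used up and the remaining litter is richer in lignin. Which of these functions the 41 members serve is not known here, because the files pair the JGI (Joint Genome Institute) protein identifiers with no names, products, positions or sequences. For the same reason the labelled organism and material could not be checked against marker genes. In bulk RNA, fewer cells of a kind and less RNA per cell cannot be told apart.

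Between 20009777 and 52554481 total gene reads were counted per library. Most of the difference lay in 8 very abundant gene models, none of them a member, that took 29.98% to 93.3% of a library. Outside these 8, the 2-month replicate 2 had 2938002 reads and the other 6 libraries 6880842 to 16923473, so 100 scaled reads stood for 29.4 reads in 2-month replicate 2 and for 187 in 5-month replicate 2. That 2-month library also detected the fewest gene models (10139), followed by 10-month replicate 3 (13405), against 15115 to 17076 in the other 5. Below, these 2 are called the sparse libraries, for the gene models detected and not for depth. Outside the 8 abundant models, 10-month replicate 3 had 11345883 reads, more than 5-month replicate 1 (6880842), which detected 15159 gene models.

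At least 100 scaled reads in all 4 earlier libraries were found for 5862 gene models. Every 10-month library lay under every earlier library in 657 of these (11.2%), and 44 met the factor of 2. Of the 44, 2 were left out for a peak at 2 months and 1 for a peak at 5 months, which leaves the 41 members, 0.699% of the 5862. The 2 with a 2-month peak, 486322 and 547740, had 18159 to 21221 and 11229 to 11796 scaled reads at 2 months, then 1518 to 2551 and 1024 to 1504 at 5 months, and finally 142 to 421 and 216 to 506. They stood above every member at 2 months and were already far lower at 5 months. Gene model 330970, with 142 to 153 scaled reads at 2 months, 308 to 360.4 at 5 months and 42.1 to 68.7 at 10 months, was the one left out for a 5-month peak. With the harvests exchanged, the same rule found 179 gene models low only at 2 months and 93 low only at 5 months. These counts rest on other numbers of libraries per harvest and were not tested against each other.

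**Figure D1:**
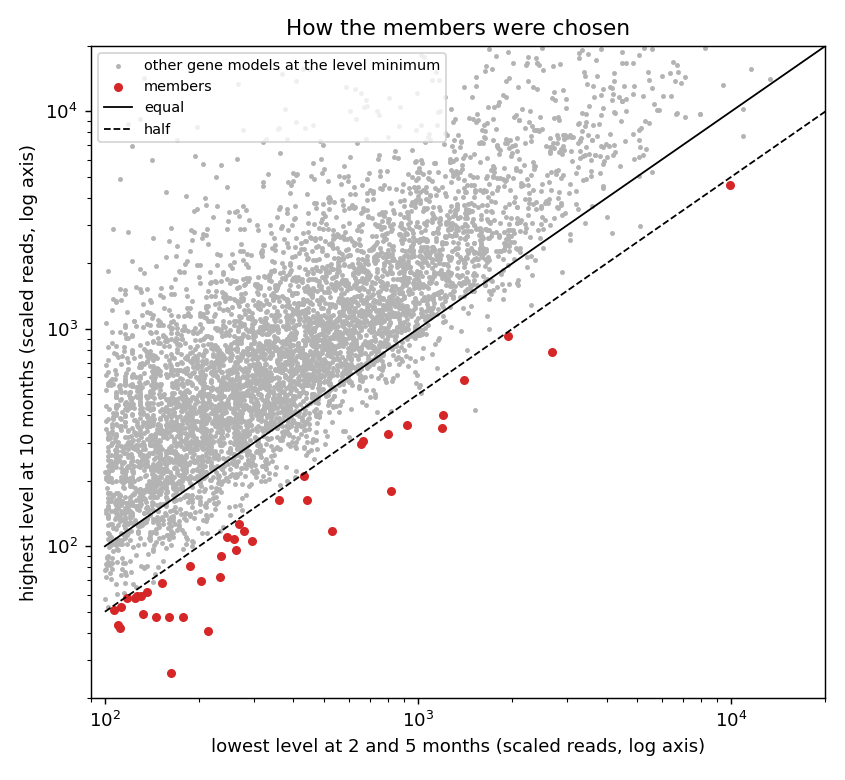
Each point is a gene model with at least 100 scaled reads in all 4 earlier libraries; the x axis is its lowest level at 2 and 5 months and the y axis its highest level at 10 months (both in scaled reads, log axes that leave out models beyond their limits). The 41 members (red) lie on or under the dashed line, where the highest 10-month level is 2 times lower than the lowest earlier one, and the 3 grey points that lie under it with them are those left out for a peak at 2 or 5 months.

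The ratio of the lowest earlier to the highest 10-month level ran from 2.03 to 6.23 over the members, with a median of 2.44. Just inside this limit were 359494 (ratio 2.03) and 353960 (2.05). Just outside were 396985, with 233 to 551 scaled reads in the earlier libraries and 108 to 118 at 10 months, and 373148, with 821 to 1173 and 398 to 419. Both had the course of a member and missed it narrowly. At the limit on the level, 432033 (lowest earlier value 107) and 419660 (109.9) were just inside. Gene models 341994 (97.8) and 431602 (94.6) met the other conditions and were just outside.

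Together the members were lower at 10 months by a wide margin in every library. In replicate order, the median member had 308 and 445 scaled reads at 2 months, 409 then 296 at 5 months, then 81.5, 81.0 and 42.1 at 10 months. The 10-month mean of a member was 5.08% to 34.9% of its mean over the 4 earlier libraries, with a median of 19.0%, while the median over all 5862 gene models at the level minimum was 98.4%. By this measure 6 members had less than 10%, 16 had 10% to 20%, 15 had 20% to 30%, and 4 had more than 30%. These values lean on the sparse libraries. Without 10-month replicate 3 the median was 21.5%, with 4 members under 10% and 13 over 30%. Without 2-month replicate 2 it was 20.9%, with 6 and 8, and without both it was 27.1%, with 3 and 12. Gene model 357090 alone held a large part of the members' reads. Without it, the summed level of the other 40 was 23677 to 34946 scaled reads in the earlier libraries and 3123 to 6262 at 10 months. As a share of the reads outside the 8 abundant models, the 41 members held 0.395% to 0.45% in the earlier libraries and 0.065% to 0.084% at 10 months.

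**Figure D2:**
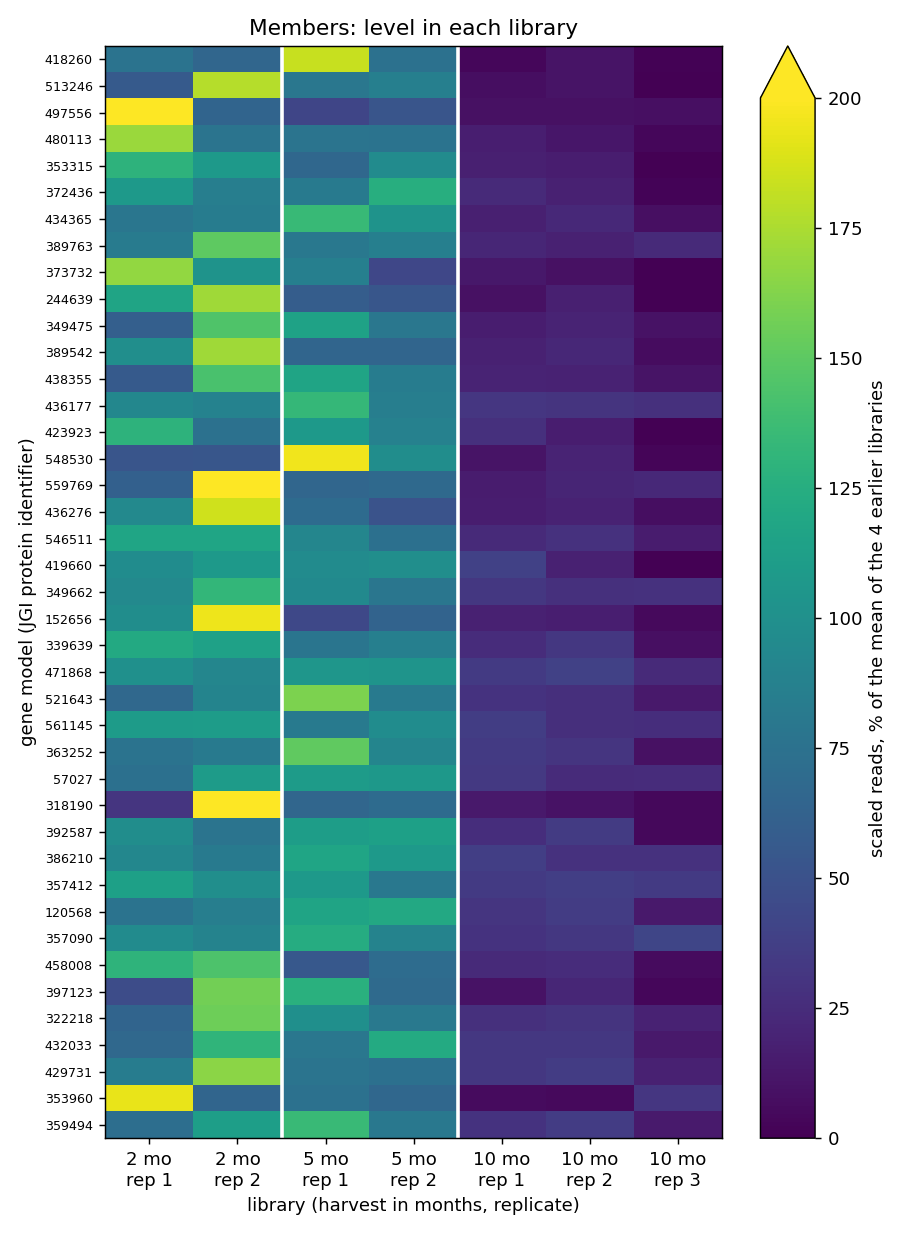
Rows are the 41 members, ordered from the largest to the smallest ratio of lowest earlier to highest 10-month level, and columns are the 7 libraries. Colour gives scaled reads as a percentage of the member's mean over the 4 earlier libraries (values above 200 share the top colour); the 10-month columns are dark throughout, and replicate 3 is the darkest of the 3 in 33 rows.

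The 4 members with the largest ratio differed widely in level. Gene model 418260 (implied length 1611 bp) had 188 and 163 scaled reads at 2 months, 454 and 185 at 5 months, then 9.46, 26.2 and 2.10 at 10 months, here and below in the order of the replicate numbers. Apart from a high value in 5-month replicate 1 its earlier libraries were nearly equal, and its 10-month mean was 5.08% of the earlier mean, the lowest of all members. Without 10-month replicate 3 this share was 7.20%, and 353960 was then lowest at 5.43%. Gene model 513246 (2062 bp) had 213 and 669.6 scaled reads at 2 months, 299 and 326 at 5 months, then 27.6, 40.9 and 0 at 10 months. Its highest value came from the shallow 2-month replicate 2, where it rests on 197 reads, and the 0 in 10-month replicate 3 allows up to 3.15 scaled reads. Its 10-month mean was 6.06% of the earlier mean, and 12.3% without both sparse libraries. With 95.3% unique reads, it was also the member with the most reads shared with other places, and its counts are uncertain to that extent.

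Gene model 497556 (1500 bp) had 4745 and 1264 scaled reads at 2 months, 819 and 1043 at 5 months, then 171, 179 and 164 at 10 months. It was lower at each harvest than at the one before in every library, although its 2-month libraries lay far apart, and its 3 libraries at 10 months were among the most alike of any member. Gene model 480113 (832 bp) had 1192 and 540.4 scaled reads at 2 months, 541 and 532 at 5 months, then 118, 82.6 and 23.1 at 10 months. Here 3 of the 4 earlier libraries were nearly equal, with 2-month replicate 1 above them.

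The most abundant member was 357090 (954 bp), both in scaled reads and per kb of implied length. It had 10602 and 9880.2 scaled reads at 2 months, 13674 and 9883 at 5 months, then 3223, 3538 and 4594 at 10 months. Its earlier libraries were alike, and it was one of the few members whose 10-month replicate 3 was the highest of the harvest, with 34.4% of the earlier mean left at 10 months. Per kb, its mean over the earlier libraries was 11541 scaled reads, against a median of 285 over the members and of 389 over all 5862 gene models at the level minimum.

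Next in level came 372436 (1182 bp), with 3523 and 2797 scaled reads at 2 months, 2671 and 4114 at 5 months, then 778, 600.5 and 68.4 at 10 months. The first 2 libraries of the last harvest were several times lower than any earlier one, and replicate 3 was lower again by about 10 times. Gene model 152656 (2690 bp) had 3149 and 6267 scaled reads at 2 months, 1406 and 2039.6 at 5 months, then 581, 538 and 162 at 10 months. It was lower at each successive harvest, with no overlap between any 2 harvests. Gene model 429731 (2023 bp) had 2214 and 4367 scaled reads at 2 months, 2041 and 1941 at 5 months, then 859.9, 929 and 491 at 10 months. Its 2-month replicate 2 stood apart, and the other 3 earlier libraries were close to each other.

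Before the last harvest the members had no common direction. The rule bounds this comparison too, since models with a peak at 2 or at 5 months alone were left out, so the counts are a description. The means at 2 and 5 months were within 2 times of each other in 33 of 41 members (80.5%). This was near the 79.2% of all gene models at the level minimum. The mean at 2 months was at least 2 times that at 5 months in 7 members, against 12.9% of all at the level minimum. The reverse held for 1 member (2.44%), against 7.88%. Both 5-month libraries lay above both 2-month libraries in 7 members, where 20.1% of the 5862 gene models at the level minimum did so. Both lay below in 12 members, against 28.3%. These shares, 17.1% and 29.3% of the members, were near those of the background.

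**Figure D3:**
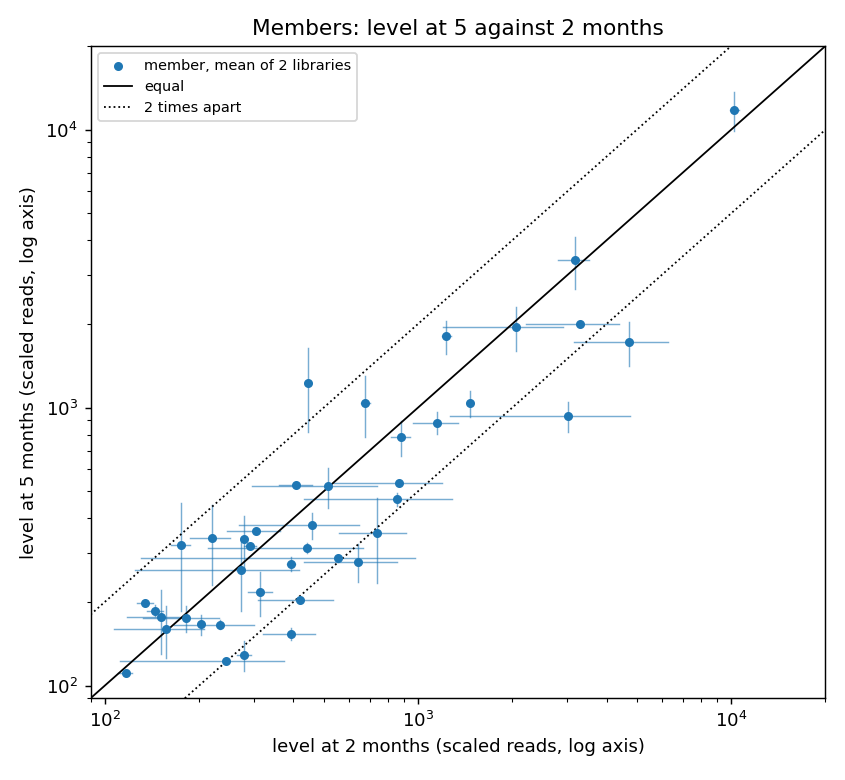
Each point is a member, placed at its mean over the 2 libraries at 2 months (x axis) and at 5 months (y axis), both in scaled reads on log axes. The lines through a point run from the lower to the higher library of each harvest; most points lie between the dotted lines at 2 times apart, and lines for 2 months are often the longer.

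The member with the largest ratio of 5 to 2 months was 548530 (1488 bp), with 443 and 445 scaled reads at 2 months, 1633 and 819 at 5 months, then 87.3, 164 and 21.0 at 10 months. It was higher at 5 months in both libraries, by 2.76 times on the means, and lowest at 10 months. Gene model 521643 (1488 bp) had 188 and 252 scaled reads at 2 months, 447 and 229 at 5 months, then 81.5, 74.5 and 37.9 at 10 months. Its 2-month and 5-month libraries overlapped, as did those of 418260, which ranked between these 2 members.

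At the other end were 497556 and 152656, described above, and 244639 (1456 bp). The last had 319 and 469 scaled reads at 2 months, 161 and 146 at 5 months, then 24.0, 47.5 and 2.10 at 10 months. Its harvests did not overlap either, as in 152656, and its 2-month mean was 2.57 times its 5-month mean.

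Some members held an almost level course until 5 months. Gene model 419660 (2253 bp) had 110.4 and 122 scaled reads at 2 months, 109.9 and 112 at 5 months, then 43.7, 21.3 and 0 at 10 months. The 4 earlier libraries differed by at most 1.11 times, although the value in 2-month replicate 2 rests on 36 reads (exact 95% Poisson interval 25.2 to 49.8 reads), the fewest of any member there. Gene model 471868 (1935 bp) had 305 and 279 scaled reads at 2 months, 319 and 314 at 5 months, then 104, 118 and 73.6 at 10 months. The earlier range of 1.15 times was again narrow, and the 10-month libraries were all well under it. Over all members, the ratio of the highest to the lowest earlier library had a median of 1.97 and reached 7.50 in 318190, against a median of 2.295 over the 5862 gene models at the level minimum.

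Of the members not yet described, 434365 (2252 bp) had 1194 and 1271 scaled reads at 2 months, 2046 and 1562 at 5 months, then 269, 350.2 and 130.4 at 10 months. Gene model 546511 (2301 bp) had 1469 and 1472 scaled reads at 2 months, 1146 and 925 at 5 months, then 299.7, 361 and 189 at 10 months. The former was higher and the latter lower at 5 than at 2 months in both libraries, and their 2-month libraries were close to each other. The highest share left at 10 months was that of 357412 (1524 bp), at 34.9%, and without 10-month replicate 3 that of 471868, at 36.5%. Gene model 357412 had 941 and 819 scaled reads at 2 months, 893 and 668 at 5 months, then 279, 305 and 285 at 10 months. Its 10-month libraries were nearly equal. The remaining 15 members had a mean of 165 to 1017 scaled reads over the earlier libraries and of 31.0 to 299 at 10 months.

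The widest member before 10 months, 318190, was also the shortest, at 519 bp. It had 130.5 and 979 scaled reads at 2 months, 279 and 296 at 5 months, then 58.9, 42.5 and 16.8 at 10 months. The 2-month libraries disagreed by 7.50 times, with the 5-month libraries between them. The longest member was 349475 (3318 bp), with 1203 and 2903 scaled reads at 2 months, 2298 and 1592 at 5 months, then 314, 401 and 191 at 10 months. All its earlier libraries were at least 3 times its highest 10-month library.

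Among the 10-month libraries, replicate 3 most often stood apart in the members. Replicates 1 and 2 were within 1.5 times of each other in 35 of 41 members (85.4%), close to the 85.9% of all gene models at the level minimum. Replicate 3 was the lowest of the harvest in 33 members (80.5%), replicate 2 in 5 and replicate 1 in 3. Over all gene models at the level minimum, replicate 3 was the lowest in 40.0%. In 24 members (58.5%), replicate 3 was under the mean of the other 2 by more than 2 times, and in 7 (17.1%) by more than 10 times. The shares over all gene models at the level minimum were 8.39% and 0.94%. The rule demands a low value in replicate 3, as in the other 2, so part of these counts is fixed by the choice of members.

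In replicate 3, several members were at or near 0. No read was counted there for 353315 (756 bp), 423923 (2535 bp), 419660 or 513246, and 1 or 2 reads for 373732 (1096 bp), 244639 and 418260. Gene model 373732 had 913 and 561 scaled reads at 2 months, 472 and 233 at 5 months, then 72.0, 49.1 and 1.05 at 10 months. Its value in replicate 3 rests on 1 read. Gene model 353315 had 342 and 285 scaled reads at 2 months, 178 and 255 at 5 months, then 47.3, 41.7 and 0 at 10 months. Gene model 423923 had 231 and 133 scaled reads at 2 months, 193 and 156 at 5 months, then 48.7, 27.8 and 0 at 10 months. Both stood above 130 in all earlier libraries and had reads in 10-month replicates 1 and 2.

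The reverse was rare. Replicate 3 was the highest 10-month library in 353960, 357090, 389763 and 559769 only. The clearest case was 353960 (1368 bp), with 1285 and 432 scaled reads at 2 months, 495 and 443 at 5 months, then 38.6, 33.5 and 210.3 at 10 months. Its replicate 3 was 5.83 times the mean of the other 2 and brought its ratio close to the limit of the rule. Its 10-month mean was 14.2% of the earlier mean, and 5.43% without replicate 3. In 389763 (42.2, 36.8 and 47.3 scaled reads) and 559769 (28.4, 38.5 and 42.1 scaled reads), the 3 libraries were within 1.5 times of each other.

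**Figure D4:**
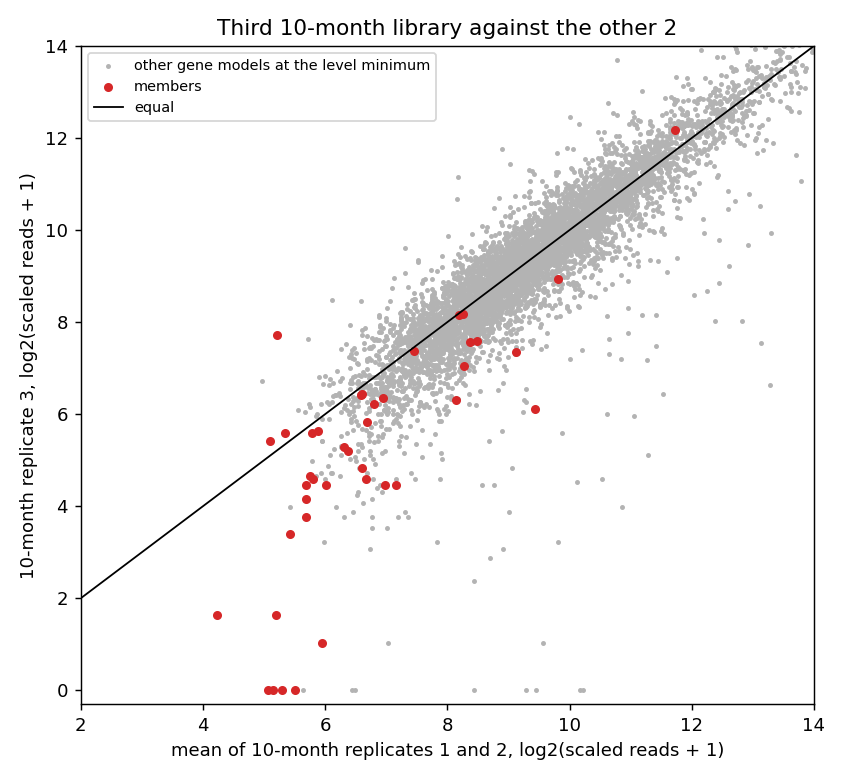
Each point is a gene model at the level minimum, with the mean of 10-month replicates 1 and 2 on the x axis and 10-month replicate 3 on the y axis, both as log2(scaled reads + 1), and the members in red. Most members lie under the line of equality, 4 of them at 0 on the y axis; grey points scatter to both sides of it, and models beyond the axes are not shown.

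The level in a library that had no part in the choice can be read when the rule is applied with each library left out in turn (size factors unchanged). Without 10-month replicate 3 it chose 51 gene models, the 41 members among them. In replicate 3 itself, 50 of these 51 lay under every earlier library, against 24.6% of the 5862 gene models at the level minimum. The 41 that did so by 2 times (80.4%, against 5.89%) are the members, since meeting the rule in replicate 3 as well made them members. Replicate 3 was also lower than both other 10-month libraries in 33 of the 51 (64.7%), against 39.8% of the models not chosen. It was under their mean by more than 2 times in 24 (47.1%), against 8.05%. Where the mean of replicates 1 and 2 was under 100 scaled reads, this held for 17 of 34 chosen models and for 29 of 119 not chosen (24.4%). Replicate 3 detected fewer gene models than the other libraries of its harvest, and the part of this in the result was not tested.

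The 10 gene models that dropped out through replicate 3 included 358991, with 146 to 462 scaled reads in the earlier libraries and 27.6, 32.7 and 104 at 10 months, and 403261, with 159 to 646 and 32.7, 71.2 and 197. In both, replicate 3 stood well above the other 10-month libraries. It was still under every earlier library in 358991, but not in 403261. These 2 were named after their values were seen. With 10-month replicate 1 left out, 61 of 63 chosen models lay under every earlier library in it (20.7% of all at the level minimum) and 41 did so by 2 times (1.65%). For 10-month replicate 2, all 61 chosen models lay under (18.7%), and again 41 by 2 times (1.83%). In both cases these 41 are again the members, so the number 41 itself is fixed by the list. Replicate 1 was lower than both other libraries in 3 of its 63, against 32.7% of all at the level minimum, and replicate 2 in 5 of its 61, against 27.4%.

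Of the earlier libraries, those from 2 months lay above every 10-month library in smaller shares of the models chosen without them than those from 5 months. By the factor of 2 the order of the harvests was mixed. Left out in turn, 5-month replicate 1 lay above every 10-month library in 48 of 50 chosen gene models (96.0%). For 5-month replicate 2 it was 66 of 67 (98.5%). By 2 times it was 40 (80.0%) and 41 (61.2%). Among all gene models at the level minimum in the other earlier libraries, these shares were 33.8% and 30.6%, and by 2 times 6.59% and 3.95%. For 2-month replicate 2 it was 45 of 58 (77.6%, against 31.9% of all), and 38 by 2 times (65.5%, against 9.8%). For 2-month replicate 1 it was 72 of 106 (67.9%, against 36.0% of all), and 32 by 2 times (30.2%, against 6.7%). The count of members was thus 106 without 2-month replicate 1, 67 without 5-month replicate 2 and 63 without 10-month replicate 1. Without both sparse libraries it was 76, with 37 of the 41 members among them.

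All 41 members passed the filter on low counts, and edgeR's quasi-likelihood test on all 14753 gene models tested called 13 of them lower at 10 than at 2 months (Benjamini-Hochberg adjusted p under 0.05). Of all gene models tested, 0.705% were called lower there. Against 5 months it called 4 members, and 0.21% of all gene models tested. The rule chose the members on these contrasts, so nothing is read from the counts. Called in both were 349475, 434365 and 546511, against 5 months alone 548530, and 10 members against 2 months alone. Among the 27 called in neither were 418260 and 513246, which have the largest ratios. The median log2 fold change of the members was -2.43 at 10 against 2 months and -1.99 at 10 against 5 months, where the medians over all gene models tested were 0.20 and -0.06. The 2 comparisons share the 10-month libraries. Both counts hung on single libraries. Leaving out 2-month replicate 1 gave 31 and 28, and leaving out its partner, replicate 2, gave 18 and 28. Of all gene models tested, 9.6% and 2.4% were called lower in the first of these fits, and 1.92% and 2.65% in the second. With 5-month replicate 1 or 2 left out, 1 library remained at 5 months. The median log2 fold change of the members was then -2.43 in either fit against 2 months, and -1.98 or -2.12 against 5 months. With 10-month replicate 1, 2 or 3 left out the counts were 3 and 0, 1 and 0, or 8 and 4. Of all gene models tested, 0.274%, 0.108% and 0.371% were called lower against 2 months in these fits. Against 5 months it was 0.0137%, 0% and 0.0687%, so where 0 members were called, almost no gene model was. Where edgeR called 0 members against 5 months with 10-month replicate 1 or 2 left out, the median log2 fold change of the members was -2.10 or -2.27. With 10-month replicate 1 or 2 left out, 30 or 31 members had an unadjusted p under 0.05 there. The rule chose the members on this contrast and the share of all gene models at that p was not computed, so nothing is read from these counts either. No DESeq2 fit was run in these cases.

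From 2 to 5 months, edgeR called 0 of the 41 members, while 0.624% of all gene models tested were called higher and 0.746% lower. DESeq2 also called 0 members, while it called 862 of 19765 gene models higher and 386 (1.95%) lower. At an unadjusted p under 0.05 in edgeR there were 3 members, and the share of all gene models at that p was not computed. The median log2 fold change of the members was -0.35, against 0.10 over all gene models tested, which include models under the level minimum. On scaled reads, the median log2 ratio of the 5-month to the 2-month mean was -0.17 in the members. It was -0.19 over the 5862 gene models at the level minimum, so the members did not differ from these. With 2-month replicate 1 left out 4 members (9.76%) were called lower, against 7.12% of all gene models tested. With replicate 2 left out it was 1 (2.44%), against 3.28%. Both shares are near the background, in fits that leave 1 library at 2 months and take it to vary like the other groups.

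Length and the share of unique reads had no part in the rule and are given without a test. The shortest member was 519 bp and the longest 3318 bp, the median being 1764 bp, against a median length of 1617 bp over the gene models at the level minimum. The middle range of the members, between the quartiles, was 1368 to 2030.0 bp, against 1107 to 2260.0 bp. All reads were unique in 36 members (87.8%, against 81.8%), and 40 had at least 99% unique reads. After 513246, the member with the lowest share was 432033 (2014 bp), at 99.9%. It had 107 and 207 scaled reads at 2 months, 125.2 and 194 at 5 months, then 50.9, 50.7 and 21.0 at 10 months. Both 5-month values lay between the 2-month values. Across the 41 members, the Spearman correlation of the ratio with implied length was -0.08 and with the mean earlier level 0.16. Points share their libraries and depth in both, and the ratio is computed from the same earlier values.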

How the data were processed

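RNA of 7 libraries was sequenced as paired Illumina reads, per the labels. Per the file headers, the authors deposited, for each of 19765 gene models, a count of unique gene reads, a count of total gene reads and RPKM. The sources used here do not name the aligner, counter, build, annotation or strand handling. The deposited RPKM was used only to recover the implied length, which agreed between libraries within 0.0045 bp. Total gene reads were divided by median-of-ratios factors (8859 gene models with reads in all libraries) to give scaled reads. For calls, filterByExpr, TMM scaling and one quasi-likelihood model over the 3 harvests were run in edgeR 4.0.16 (R 4.3.3), with Benjamini-Hochberg adjusted p under 0.05, and tested on simulated data. DESeq2 1.42.0 and the other alternatives are given in the closing section. A count of 0 allows up to 3 reads; this and the Poisson interval cover counting error only, since no molecular identifiers tell copies of one molecule apart. No label says that replicates came from separate cultures beyond naming them biological, so p-values measure the spread between these samples. Named members were taken by rank (ratio, level, level per kb, 5 to 2 month ratio, spread, length, unique share, distance from the limits). The members and lists were chosen with earlier results of these data known.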

Additional observations from a re-analysis of the deposited data

How the results depend on the processing

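The number of members, 41, kept within 1.5 times with TMM-scaled library sizes (35, of which 34 shared), unique gene reads (41, all shared) and a level minimum of 50 (60). It was 25 with a level minimum of 200, 116 with a ratio of 1.5, 11 with a ratio of 3, and 76 without 2-month replicate 2 and 10-month replicate 3. Leaving out 1 library gave 50 to 106. The 10-month share of the earlier level moved by more than its SD over the 10-month libraries in 13 members without both libraries. Without 1 earlier library it did so in 1 to 6 members. Leaving out 1 of the 3 10-month libraries cannot move a share that far by this measure, so the 0 found there says nothing about robustness. Members called at 5 against 2, 10 against 2 and 10 against 5 months numbered 0, 13 and 4. They were 1, 28 and 19 with no low-count filter (1.63%, 1.75% and 0.527% of all gene models were called lower), 36 and 33 for the last 2 comparisons with DESeq2 (3.26% and 1.29%), and 1 and 26 from only the 2 harvests compared (0.146% and 2.8%). Median-of-ratios factors gave 8 for 10 against 5 months (0.291%). Without 1 of the 10-month libraries the counts were 0, 1 to 8 and 0 to 4 (0.189% to 0.619%, 0.108% to 0.371% and 0% to 0.0687%). Without 1 earlier library they moved further, in fits with 1 library left at its harvest. Without 2-month replicate 2 and 10-month replicate 3, 1 library is left at 2 months. The median log2 fold changes of the members were then -0.09, -1.79 and -1.76. The cause of these differences was not tested. With the replicate number as a block (replicate block) the members called numbered 0, 3 and 2 (0.413%, 0.203% and 0.0271%). Same-numbered deviations from the harvest mean correlated at -0.222 to 0.039, and those with unlike numbers at -0.129 to 0.222. With 2 libraries at a harvest the deviations mirror each other, so these values cannot settle whether the numbers pair the libraries. Depth limits values from 2-month replicate 2 most, where 100 scaled reads are 29.4 reads.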
